A study of Bombyx mori with 8 samples.

Results

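The regions described here are the places where both fat body libraries of the silkworm Bombyx mori have a called G-quadruplex peak and neither brain library has one. G-quadruplex signal was mapped by CUT&Tag, in which an antibody brings a Tn5 transposase to its target so that nearby DNA is cut and tagged for sequencing. Members were found by merging the 4 deposited peak lists wherever peaks overlapped by at least 1 bp. Of 41892 merged regions, 1266 had a peak of both fat body lists and of no brain list. The groups used are fat body at the stage coded L5D3 (2 libraries) and brain at the same stage (2 libraries), all labelled wild type, strain P50 and antibody BG4. Larvae of that strain were reared on mulberry leaves, and no group carries a transgene or a treatment. The labels do not say whether replicates came from separate animals or how many animals were pooled, so the spread between replicates may be technical. Labels of 4 more samples exist (IgG, P0 brain and the ovarian line BmN with 2 replicates), and these samples were not analysed here.

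A G-quadruplex (G4) forms when runs of guanines on a DNA strand fold into stacked planes of guanines held together by hydrogen bonds and a metal ion such as potassium. In human cells G4 signal is found mostly in open chromatin and often at promoters of active genes. The fat body is the insect organ of intermediary metabolism and of fat, glycogen and protein storage, and it makes much of the protein of the haemolymph. The larval brain is made up of neurons and glia. Peak lists carry no gene levels, so the tissue labels could not be checked against marker genes. Bulk libraries also cannot tell apart a structure present in more nuclei from a stronger signal in each nucleus.

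The libraries stand apart in ways that bear on every value below. Fat body replicates 1 and 2 held 8556 and 5894 peaks, and brain replicates 1 and 2 held 6759 and 33925. The low end of the local background at peaks, recovered from the deposited fold and −log10 p, also differed between tissues. It was 5.81 and 3.32 fragments in fat body replicates 1 and 2, and 1.44 and 1.76 in brain replicates 1 and 2. What part this difference plays in the absence of brain peaks was not tested. The text inside the peak names carries 1H6, another G4 antibody, for 100% of the peaks of both fat body lists, where the labels say BG4. It carries BG4 for 100% of the peaks of brain replicate 1, and no antibody name for brain replicate 2. If those names are right, antibody and tissue cannot be told apart. Many values are therefore also given by list or with a list left out, and the others rest on the 4 merged lists. With 2 libraries against 2, the smallest exact p is 0.333, and the members were chosen by the readout itself, so the values that follow are a description without a test.

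Fat-body-only regions were 30.6% of the 4142 regions that both fat body lists called, and 3.02% of all merged regions. The other 2876 regions of both fat body lists, 6.87% of all merged regions, also held a brain peak: 1541 were called in all 4 lists, 824 had a peak of brain replicate 1 alone and 511 had one of brain replicate 2 alone. Leaving out brain replicate 1 gave 2100 fat-body-only regions, and leaving out brain replicate 2 gave 1775. Nearly all members were simple in structure, with 1260 made of exactly 1 peak from each fat body list, 3 with 2 peaks of replicate 1 and 3 with 2 peaks of replicate 2.

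Fat-body-only regions were the weaker part of the reproducible fat body signal. In fat body replicate 1 their peaks had a median fold over the local background (the authors' ratio at the summit) of 5.23, with quartiles of 4.26 and 6.45, against 7.14 in regions called in all 4 lists. In fat body replicate 2 the medians were 6.11 for fat-body-only regions and 9.0 for regions in all 4 lists. Regions with 1 brain list lay between these, at 5.82 in replicate 1 and 7.31 in replicate 2. Over the 2 fat body lists the median fold averaged 5.67 ± 0.62 in fat-body-only regions and 8.07 ± 1.32 in regions of all 4 lists (SD of list medians, n = 2 lists each). The order of the classes was the same in both lists. Peaks that a single fat body list called without any brain peak were weaker still, with medians of 4.26 in replicate 1 and 5.43 in replicate 2.

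Against regions of all 4 lists, the lower fold went with fewer fragments at the summit and a background that was about equal in replicate 1 and lower in replicate 2. The summit pileup (stacked fragments, recovered from the deposited fold and −log10 p) had a median of 65 fragments in fat-body-only regions and 84 in regions of all 4 lists in replicate 1. In replicate 2 it was 40 and 69 fragments. The local background had medians of 10.96 fragments in fat-body-only regions and 10.93 in regions of all 4 lists in replicate 1, and of 5.49 and 6.75 in replicate 2. Against regions with 1 brain list, the fat-body-only pileup was 65 and 61 fragments in replicate 1 and 40 and 45 in replicate 2, so the replicates gave opposite orders. The local background was higher in fat-body-only regions than in those with 1 brain list, at 10.96 and 9.03 fragments in replicate 1 and 5.49 and 5.19 in replicate 2. Median −log10 q was 24.1 and 18.0 in the fat-body-only peaks of replicates 1 and 2, against 43.9 and 42.2 in regions of all 4 lists.

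**Figure D1:**
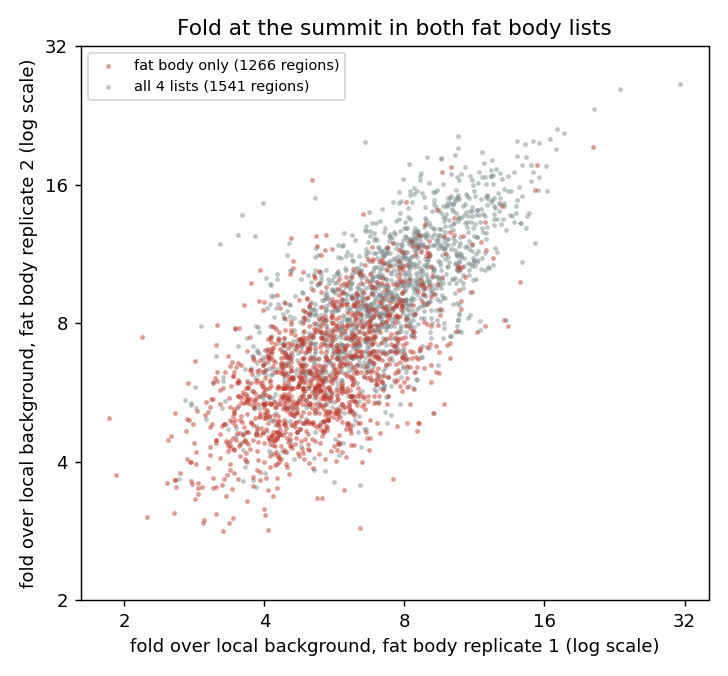
Fold over local background at the summit in fat body replicate 1 (horizontal, log scale) and replicate 2 (vertical, log scale), 1 point per region, for 1266 fat-body-only regions and 1541 regions of all 4 lists. The fat-body-only points lie toward the lower left, with medians of 5.23 and 6.11 against 7.14 and 9.0, and the clouds overlap.

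The fat body replicates ranked these regions in a partly similar order, more so by fold than by −log10 q or peak width. Across the 1266 regions the log2 folds of the replicates had a Pearson correlation of 0.61 and a Spearman correlation of 0.58, and across the 1541 regions of all 4 lists 0.71 and 0.70. For −log10 q and peak width the Spearman correlations were 0.44 and 0.41 in fat-body-only regions, and 0.68 and 0.63 in regions of all 4 lists. These are descriptions over regions that share the same 2 libraries. The fold was higher in replicate 2 for 924 of the 1266 regions, while the pileup was higher in replicate 1 for 1072 of them. The summits of the replicates lay a median of 67 bp apart in fat-body-only regions and 48.5 bp apart in regions of all 4 lists. They were within 50 bp of each other in 42.7% of fat-body-only regions, 42.9% of regions with 1 brain list and 51.0% of regions in all 4 lists.

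The share of regions with no brain peak changed steadily with signal. Regions of both fat body lists were split into 10 bins of equal size by the smaller of their folds. In the lowest bin, with a median smaller fold of 3.48, 53.1% of regions were fat-body-only (95% exact binomial interval 48.2% to 58.0%). In the highest bin, with a median of 10.5, 6.99% were (interval 4.73% to 9.88%). Ranking by replicate 1 alone gave 52.7% in the lowest and 8.67% in the highest bin, and ranking by replicate 2 alone gave 62.6% and 5.78%. The peak width showed a shallower change, with 36.5% in the bin of narrowest regions and 25.5% in the widest. These intervals cover counting error only, and regions near each other are not independent.

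**Figure D2:**
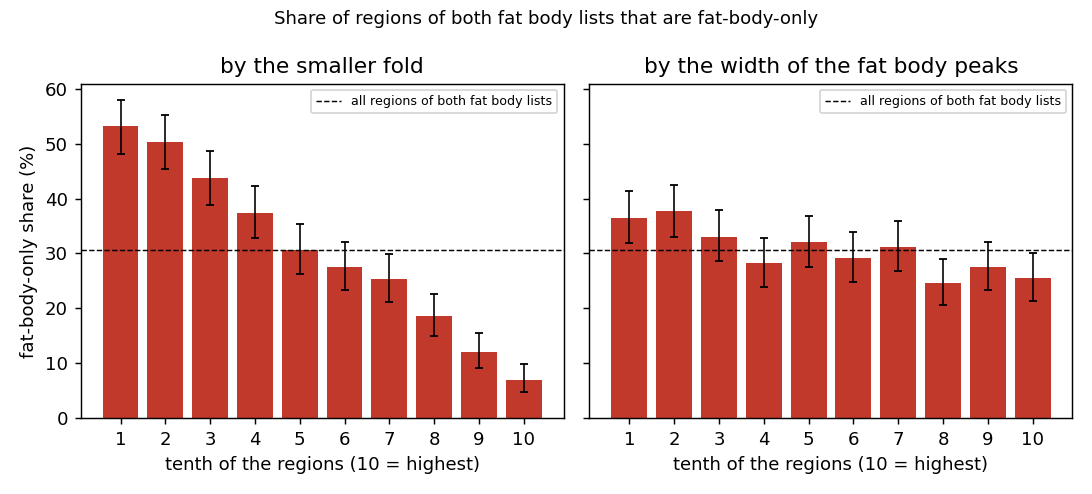
Share of regions of both fat body lists that are fat-body-only (%), in 10 equal bins by the smaller fold (left) and by the width of the fat body peaks (right), with 95% exact binomial intervals and the share over all 4142 regions as a dashed line at 30.6%. The share is 53.1% in the bin of lowest fold and 6.99% in the highest.

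Strong fat-body-only regions were few, and 18 of the 1266 had a fold above 10 in both fat body lists, against 212 of the 1541 regions in all 4 lists. The strongest lies on sequence 15 at 6070041 to 6070642, with folds of 20.4 in replicate 1 and 19.3 in replicate 2. Its −log10 q values were 256.5 and 109.3, and its summits lie 34 bp apart. Sequence 17 at 9037826 to 9038260 had 128 fragments at the summit in both lists, with summits 1 bp apart. The region on sequence 4 at 8459000 to 8459582 had pileups of 203 and 96 fragments and no other peak of any list within 10 kb. None of these 3 regions has a brain peak within 1 kb.

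The other regions among the 10 with the highest smaller fold were spread over 7 further sequences. Sequence 11 at 10106549 to 10106998 had −log10 q values of 90.0 and 75.8 in replicates 1 and 2. Sequence 1 at 18743772 to 18744261 had 58.0 and 58.6, and its next region of both fat body lists lies 266951 bp away. That gap is 42737 bp for the one on sequence 11, against a median of 20167 bp and an upper quartile of 45517 bp over all fat-body-only regions. Sequence 23 at 19238454 to 19238949 had folds of 11.7 and 12, and peaks of both brain lists lie close by, 334 bp away in replicate 1 and 482 bp away in replicate 2. Sequence 5 at 14020706 to 14021164 had folds of 12 and 11.5, with no brain peak within 20479 bp. Sequence 18 at 12113115 to 12113588 had folds of 11.2 and 11.9 with summits 1 bp apart. The last of these regions were sequence 25 at 1661491 to 1662355 (folds 12.4 and 11.1) and sequence 2 at 5548984 to 5549338 (folds 10.7 and 12.4). The one on sequence 2 has a brain replicate 2 peak at a distance of 217 bp. Of the 10 regions, those on sequences 2, 11 and 23 have a brain peak within 1 kb and the other 7 have none.

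The width of fat-body-only regions had a median of 663.5 bp, with quartiles of 505 and 865 bp and a range of 305 to 2564 bp. Taking only the span of the fat body peaks in each class, the median was 663.5 bp in fat-body-only regions, 653 bp in regions with 1 brain list and 756 bp in regions of all 4 lists. By list, the median peak was 571 bp wide in replicate 1 and 486 bp in replicate 2 in fat-body-only regions, a mean of 528.5 ± 60.1 bp (SD, n = 2 lists). In regions of all 4 lists the medians were 656 and 647.5 bp, a mean of 651.8 ± 6.0 bp (SD, n = 2 lists). There were 219 fat-body-only regions wider than 1000 bp, a count not made for the other classes. The upper quartile of the span of the fat body peaks was 865 bp in fat-body-only regions. It was 863 bp in regions with 1 brain list and 994 bp in regions of all 4 lists.

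Among the 5 widest fat-body-only regions, 3 lie on sequence 20 within 63.9 kb of each other. They span 3254096 to 3256440, 3298654 to 3300983 and 3315454 to 3318017, and are 2345, 2330 and 2564 bp wide. Their summits held 428, 436 and 325 fragments in replicate 1 and 247, 172 and 172 in replicate 2. The folds were modest, at 2.71, 4.19 and 5.202 in replicate 1 and 4.66, 5.40 and 5.64 in replicate 2, and the local background was high, at 157.2, 103.3 and 61.7 fragments in replicate 1 and 52.2, 31.03 and 29.7 in replicate 2. The median local background of fat-body-only peaks was 10.96 and 5.49 fragments in the same lists. The stretch also holds 6 peaks of brain replicate 2 and 1 of brain replicate 1, and no region called in all 4 lists. It does hold 1 region of both fat body lists and 1 brain list, and 4 of 1 fat body list with 1 or 2 brain lists. The remaining wide regions are sequence 10 at 14583440 to 14585932 (folds 3.29 and 6.26) and sequence 7 at 4218769 to 4221120 (folds 5.61 and 7.99).

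High local background went with fat-body-only regions in replicate 1 and not in replicate 2. Of the 65 regions of both fat body lists with a background above 50 fragments in replicate 1, 30 (46.2%) were fat-body-only, against 30.6% of all regions of both lists. Of the 52 with a background above 25 fragments in replicate 2, 11 (21.2%) were fat-body-only. By bins of background, the fat-body-only share was 23.4% in the lowest and 37.6% in the highest bin of replicate 1, and 30.4% and 16.9% in replicate 2. The replicates thus went opposite ways. The limits on background were chosen after the data were seen. The highest background of any member was on sequence 23 at 15559044 to 15559653, with 254.6 fragments in replicate 1 and 15.9 in replicate 2, and folds of 1.85 and 4.98. That region was singled out after its values were seen.

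Few regions sat at the edge of the rule. A brain peak lies within 50 bp of 11 fat-body-only regions (0.869%) and within 200 bp of 27 (2.13%). On the far side of the rule, 17 of 2876 regions (0.591%) overlapped a brain peak by less than 50 bp. Just inside were sequence 23 at 11213414 to 11214028, 1 bp from a peak of brain replicate 2, sequence 27 at 829224 to 830261, 2 bp away, and sequence 7 at 7539126 to 7540177, 6 bp away. Just outside were sequence 4 at 7141694 to 7142456, overlapping brain replicate 2 by 4 bp, sequence 7 at 6107001 to 6108886, by 7 bp, and sequence 15 at 12153996 to 12154587, by 9 bp. The brain peaks of these last 3 had folds of 3.79, 4.98 and 3.84. The lists also stop at a −log10 q of about 5. The smaller −log10 q of the 2 fat body peaks was under 10 in 233 members, with a lowest value of 5.30 and a median of 15.8. That median was 19.5 in regions with 1 brain list and 33.7 in regions of all 4 lists.

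A brain peak lay within 5 kb of most fat-body-only regions, but how close one lies to places picked at random was not measured. The gap to the nearest peak of either brain list had a median of 4010 bp, quartiles of 1648 and 8152 bp, and a maximum of 36629 bp. A brain peak lay within 1 kb of 189 regions (14.9%), within 5 kb of 739 (58.4%) and within 10 kb of 1022 (80.7%). The longer brain list lay closer. More than 500 kb from sequence ends, brain replicate 2 held 75.9 peaks per Mb and brain replicate 1 held 15.1. The median gap was 4422 bp to brain replicate 2, with its 33925 peaks, and 19106 bp to brain replicate 1. Within 10 kb, 76.9% of members had a peak of brain replicate 2 and 31.2% one of brain replicate 1. Regions called in 1 fat body list with no brain peak gave nearly the same distances, with medians of 4227 bp to either list, 18119 bp to replicate 1 and 4764 bp to replicate 2. Brain-only regions, called in both brain lists and no fat body list, lay farther from the opposite tissue, with a median of 28382 bp from a peak of either fat body list. By list the medians were 40306 bp to fat body replicate 1 and 38940 bp to fat body replicate 2, against 19106 bp between fat-body-only regions and brain replicate 1.

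**Figure D3:**
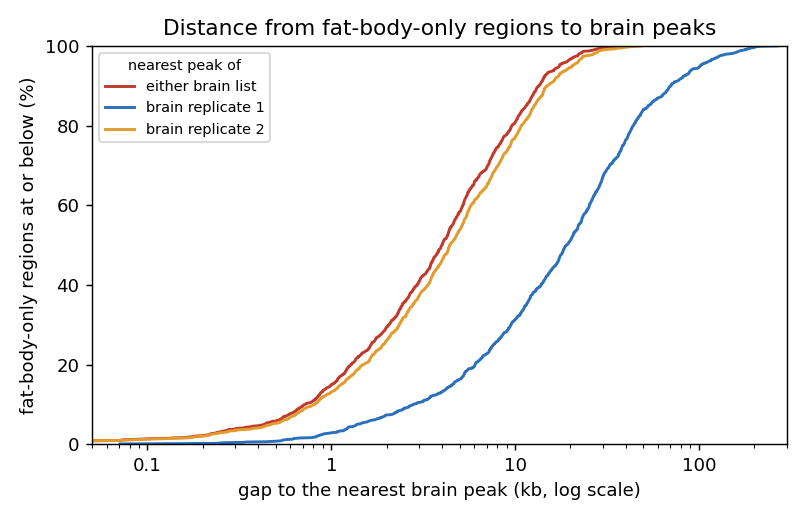
Cumulative share of the 1266 fat-body-only regions (%, vertical) by the gap to the nearest brain peak in kb (horizontal, log scale), for either brain list, brain replicate 1 and brain replicate 2. The curve for brain replicate 1 lies to the right, with a median of 19106 bp against 4422 bp for brain replicate 2.

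The fat-body-only regions farthest from any brain peak were mostly of ordinary strength. Sequence 1 at 20052525 to 20053049 lay 36629 bp from the nearest brain peak. It was weak, with folds of 4.03 and 3.68, under the lower quartiles of 4.26 and 5.10 for fat-body-only peaks. Sequence 10 at 10553156 to 10553550 lay 35162 bp away and was strong, with folds of 14.1 and 9.83 and summits 1 bp apart. Of the 5 far regions it is the strongest, and the only one still a member with a −log10 q of at least 20 in the fat body lists. Sequence 23 at 14668036 to 14668531 lay 33753 bp away with folds of 6.02 and 6.13. The remaining far regions were sequence 19 at 4989742 to 4990183, 31852 bp away with folds of 4.56 and 6.34, and sequence 3 at 3437218 to 3437853, 31241 bp away with folds of 4.74 and 5.96.

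The brain region nearest to a fat-body-only region was mostly one of brain replicate 2 alone, but less often than among all regions with a brain peak. In 844 of 1266 cases (66.7%) it was called in brain replicate 2 alone, a class that makes up 77.7% of all regions with a brain peak. In 58 cases (4.58%) it was called in brain replicate 1 alone, a class of 3.81%. In 96 cases (7.58%) it was called in all 4 lists, which make up 4.24% of regions with a brain peak. In 100 cases (7.90%) it was called in both fat body lists and 1 brain list, a class of 3.67%. In 43 cases (3.40%) it was brain-only, a class that makes up 5.52%. Of the 2530 immediate neighbours on either side, 72 (2.85%) were brain-only, although that class is 4.79% of all merged regions, and 136 (5.38%) were fat-body-only, a class of 3.02%. The immediate neighbours of regions in all 4 lists were brain-only in 3.93% of cases and fat-body-only in 4.81%.

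The surroundings of fat-body-only regions held about as many fat body peaks as those of the other reproducible fat body regions. Within 10 kb on either side there were on average 0.807 further peaks of fat body replicate 1 around fat-body-only regions, against 0.694 around regions of all 4 lists. For replicate 2 the averages were 0.414 and 0.392. Further peaks of brain replicate 1 averaged 0.360 around fat-body-only regions and 0.433 around regions of all 4 lists, and those of brain replicate 2 averaged 1.34 and 1.13. Brain-only regions had 0.278 and 0.219 peaks of fat body replicates 1 and 2 in the same flanks. No other peak of any list lay within 10 kb of 140 fat-body-only regions (11.1%), a count that was not made for the other classes.

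Most fat-body-only regions had no other member within 25 kb when all 4 lists were used. Another fat-body-only region lay within 25 kb of 347 of them (27.4%) and within 5 kb of 53 (4.19%). Without fat body replicate 2, which leaves 4576 members, 69.0% had another within 25 kb, and with a −log10 q of at least 20 in the fat body lists, which leaves 440, 10.7% had. The same measure within 25 kb was 27.7% among the 1335 regions with 1 brain list, 25.6% among the 1541 regions of all 4 lists and 24.7% among the 2008 brain-only regions. Within 100 kb it was 57.8% for fat-body-only regions and 62.7% for regions of all 4 lists. Chaining members at gaps of at most 25 kb left 919 alone and gave 127 pairs, 23 groups of 3 and 6 groups of 4, the largest size.

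These groups of 4 differed in strength and in what lies among them. On sequence 10, a group from 101840 to 137266 had folds between 2.63 and 4.07 in replicate 1 and between 2.84 and 6.99 in replicate 2, with no region of all 4 lists and no region of brain alone inside it. A second group on sequence 10, from 6146879 to 6184484, was stronger, with folds of 5.04 to 8.89 and 4.84 to 11.7, and 4 regions of brain replicate 2 alone lie inside it. On sequence 13, from 17419120 to 17455123, folds ran from 4.12 to 5.22 and from 5.52 to 7.29. On sequence 18, from 13687558 to 13749449, they ran from 5.04 to 8.81 and from 6.03 to 7.82. The group on sequence 19, from 7591218 to 7631247, had folds of 4.29 to 6.65 and 4.49 to 5.80 and encloses 2 regions of all 4 lists. A further group of the same size on sequence 20, from 130251 to 159263, falls outside the naming rule and was added after its values were seen. Its folds ran from 2.79 to 8.85 in replicate 1 and from 3.58 to 13.1 in replicate 2. The groups at 101840 on sequence 10 and at 130251 on sequence 20 lie 102 and 130 kb from the start of their sequences. The group on sequence 13 lies 260 kb from the far end of its sequence.

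The order of regions along the sequences was compared next, first among fat body regions and then against brain-only ones. Among regions of both fat body lists, the one following a fat-body-only region was also fat-body-only in 405 of 1254 cases (32.3%, 95% exact binomial interval 29.7% to 35.0%), where 30.6% of the set is. After a region with a brain peak it was fat-body-only in 29.8% of cases. Without brain replicate 1 the share after a fat-body-only region was 50.3%, where 50.7% of the set is, so the direction turned. Taking only fat-body-only and brain-only regions in order, the next was fat-body-only in 637 of 1256 cases (50.7%) after a fat-body-only region and in 615 of 1979 cases (31.1%) after a brain-only region. In that set 38.7% are fat-body-only. The difference between these shares was 19.6 percentage points. With 1 list left out it ranged from 10.3 points without brain replicate 1 to 29.5 without fat body replicate 2. Without brain replicate 1 the shares were 16.1% and 5.84%, where 6.47% of the set is fat-body-only. Without fat body replicate 2 they were 76.4% and 46.9%, where 66.3% is. The sizes of these differences are therefore not comparable between settings. With no list left out and regions of all 4 lists in place of brain-only ones, the shares were 46.8% and 43.7%. Fat-body-only regions thus followed each other more often than they followed brain-only regions, whose flanks hold fewer peaks of both fat body lists. Whether the sparse flanks account for this was not tested.

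Windows of 1000 kb gave a like picture. Across 430 windows, the number of fat-body-only regions had a Spearman correlation of 0.47 with the number of fat body regions that hold a brain peak and of 0.00066 with the number of brain-only regions. It was 0.36 with peaks of brain replicate 1 and -0.11 with peaks of brain replicate 2. These values are descriptions over windows of the same 4 libraries, which share mappability and base composition. A window held a median of 2 members, 58 windows held none and the fullest held 11. The variance over the mean was 1.71 for fat-body-only regions, 2.45 for fat body regions with a brain peak and 1.46 for brain-only regions. Without fat body replicate 2 the variance over the mean was 4.10 for fat-body-only regions and 3.25 for fat body regions with a brain peak, and without brain replicate 1 it was 2.06 and 2.05, so the order of these classes depends on the lists used. The correlation with brain-only regions was -0.35 without brain replicate 1, where that class is every region of brain replicate 2 without a fat body peak.

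Sequence 10 from 9000001 to 10000000 held 11 fat-body-only regions beside 16 fat body regions with a brain peak. Of the 3 windows with 10 members, sequence 10 from 6000001 to 7000000 held 15 fat body regions with a brain peak, sequence 18 from 13000001 to 14000000 held 3 and sequence 20 from 1 to 1000000 held 7. Fat-body-only regions thus outnumbered the shared ones in the windows on sequences 18 and 20 and not in those on sequence 10. The longest stretch without a member was 3629 kb on sequence 16, from 9789833 to 13418730, and it held 22 fat body regions with a brain peak and 13 brain-only regions. The next, on sequence 13, was 2976 kb long and held 20 and 10. These windows and stretches were chosen after the data were seen.

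All but 1 of the members lie on the 28 long sequences of the assembly. The exception is on the short sequence 43, and short sequences hold 5 regions of both fat body lists in all. The density on long sequences, measured to the last peak of any list, was 2.85 fat-body-only regions per Mb over all of them and ranged between 1.36 on sequence 1 and 4.38 on sequence 20. In the usual silkworm numbering, chromosome 1 is the Z sex chromosome, but the files do not say whether sequence numbers follow it. Density had a Spearman correlation of 0.75 with that of the other fat body regions over the 28 sequences, and of 0.11 with that of brain-only regions. Without brain replicate 1 these were 0.73 and -0.48. The correlation with brain-only regions was 0.17 without brain replicate 2, 0.24 without fat body replicate 1 and 0.23 without fat body replicate 2. With peaks per Mb of single brain lists, the density had Spearman correlations of 0.65 for replicate 1 and -0.36 for replicate 2. As a share of regions of both fat body lists, fat-body-only regions made up 23.8% on sequence 28 (15 of 63), the lowest, and 38.6% on sequence 20 (54 of 140), the highest. Sequence 1 had 27.7% (28 of 101). The 95% exact binomial interval of the share included 30.6% on all 28 sequences.

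**Figure D4:**
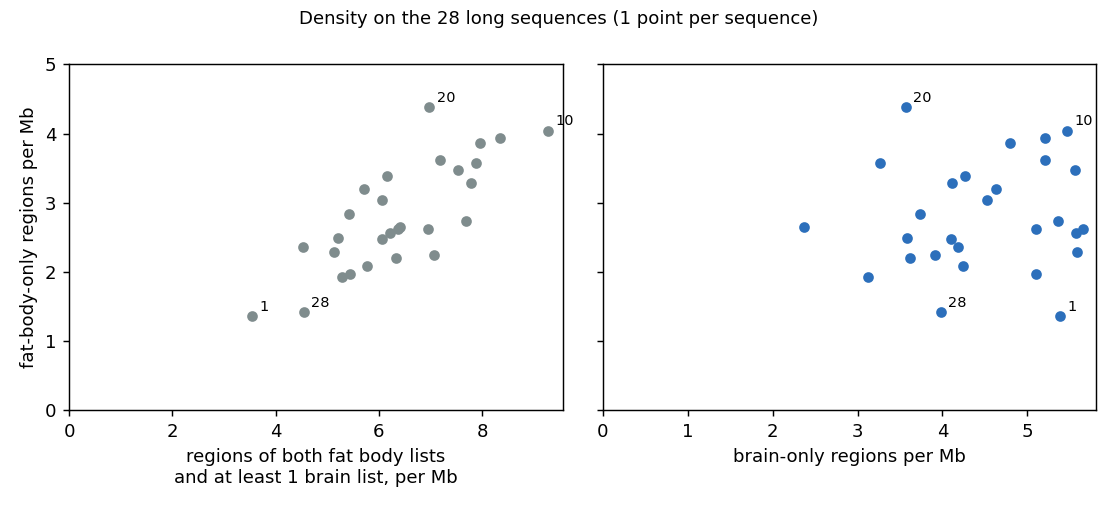
Fat-body-only regions per Mb (vertical) on each of the 28 long sequences, against regions of both fat body lists that hold a brain peak per Mb (left) and brain-only regions per Mb (right). The left panel runs upward, with a Spearman correlation of 0.75, from sequence 1 at 1.36 to sequences 10 and 20 at 4.04 and 4.38, and the right panel has a Spearman correlation of 0.11.

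Fat-body-only regions were relatively more frequent near sequence ends. The first and last 10% of the long sequences held 279 of 1265 fat-body-only regions (22.1%, 95% exact binomial interval 19.8% to 24.4%), 495 of 2872 fat body regions with a brain peak (17.2%, interval 15.9% to 18.7%) and 388 of 1996 brain-only regions (19.4%). The middle 20% held 22.8%, 24.2% and 20.5% of the same sets. Within 500 kb of an end, 127 of 307 regions of both fat body lists were fat-body-only (41.4%, interval 35.8% to 47.1%). Elsewhere 1138 of 3830 were (29.7%, interval 28.3% to 31.2%). The limit of 500 kb was chosen after the data were seen. Members near ends had median folds of 5.15 and 5.93 in replicates 1 and 2, against 5.24 and 6.12 elsewhere.

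The fat body lists carried this unevenly. In fat body replicate 1, 56.1% of peaks within 500 kb of an end met no brain peak, against 53.0% elsewhere. In fat body replicate 2 the shares were 48.2% and 36.9%. Replicate 2 also had more peaks near ends, 16.7 per Mb against 13.0 elsewhere, a ratio of 1.28. The ratios were 1.05 in fat body replicate 1, 1.01 in brain replicate 1 and 0.911 in brain replicate 2. The part that these densities play in the result was not tested. Within fat body replicate 1, 18.7% of peaks meeting no brain peak and 17.1% of those meeting one were in the first and last 10% of sequences, and within replicate 2 the shares were 22.7% and 17.9%. The difference had 1 sign in both lists and was larger in replicate 2. Without fat body replicate 2 the difference between ends and elsewhere came to 2.83 percentage points, against 11.7 with both lists and 10.6 without fat body replicate 1. Leaving out brain replicate 1 gave 7.93 points and leaving out brain replicate 2 gave 10.8. Of 56 ends, 42 held a member. The fullest were the far end of sequence 5 (9 of 12 regions), the start of sequence 20 (9 of 12) and the far end of sequence 13 (8 of 16), and without these 3 ends the share was 37.8%.

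**Figure D5:**
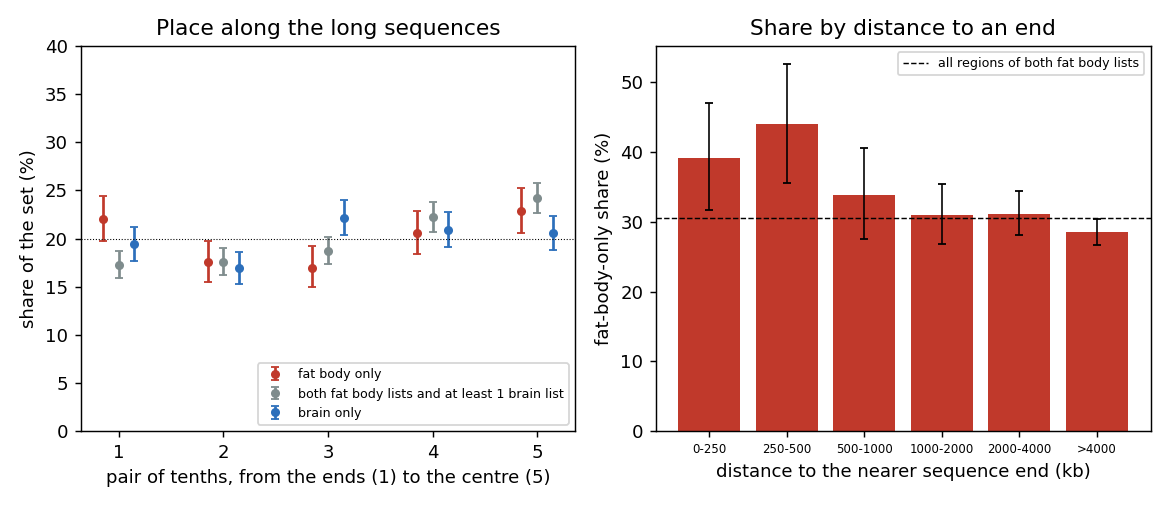
Left: share of each set (%) in pairs of 10% bins of the long sequences, from both ends (1) to the centre (5), with 95% exact binomial intervals, for fat-body-only regions, fat body regions with a brain peak and brain-only regions, with a dotted line at 20%. Right: share of regions of both fat body lists that are fat-body-only (%) by distance to the nearer end in kb, with the same intervals and the overall 30.6% dashed. The end bins hold 22.1% of fat-body-only regions and 17.2% of those with a brain peak.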

How the data were processed

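Each of the 4 libraries has its own deposited peak list, and replicates were not pooled. The submitters' processing notes name MACS2 2.1.0, deepTools 3.3.0, Bowtie2, Picard and Trim Galore, without order or settings. No genome or annotation of the build of the lists was available here, so no gene, feature or sequence was assigned. Coordinates are 1-based in the lists' own sequences, called by their number. The authors' score is a rounded form of their −log10 q. Fold is the authors' ratio of summit height to local background, and −log10 p and q are the deposited values. The score was not used.

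Lists were merged at 1 bp overlap and regions classified by the lists that call them, with Python 3.11.15, pandas 2.3.3 and scipy 1.17.1. Pileup and background were solved from fold = (pileup + 1)/(background + 1) and the Poisson upper tail. Pileups came out whole within 0.02 for 99.98% and 99.92% of fat body peaks. The number of reads per library is unknown, although the low end of the recovered background was lower in both brain lists than in both fat body lists. A place without a peak can still hold signal under the threshold. Merging and distances were tested on simulated lists. Sequence ends were taken as the last peak end of any list. Named regions are the 10 with the highest smaller fold, the 5 farthest from brain peaks, the 5 widest, 3 on each side of the rule and 5 groups. The members and measures were chosen with earlier results of these data known.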

Additional observations from a re-analysis of the deposited data

How the results depend on the processing

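The count of fat-body-only regions changed with the peaks and lists admitted. So did their share of the regions called in every fat body list used. In the main setting these were 1266 and 30.6%. They were 787 and 34.7% with a −log10 q of at least 20 in all lists. With that limit in the fat body lists only they were 440 and 19.4%. At equal list lengths they were 1479 and 41.7%. With 1 library left out they ranged from 1775 to 4576 and from 38.5% to 53.7%. The median width was 566 bp at 50% overlap, 735 and 736 bp with the limits of 20 and 686 bp at equal list lengths, and ranged from 454 to 662 bp with 1 library left out. The median distance to a brain peak was 3571 bp at 50% overlap, 4878 bp with a −log10 q of at least 10, 7842 bp with 20 in all lists, 4878 bp with no brain peak within 1 kb and 12133 bp at equal list lengths, and ranged from 3933 to 18657 bp with 1 library left out, the highest without brain replicate 2. The share with another member within 25 kb was 15.2% with 20 in all lists and 10.7% with 20 in the fat body lists, and ranged from 34.3% to 69.0% with 1 library left out. The share followed by another member was 19.7% with 20 in the fat body lists and 43.9% at equal list lengths, where 19.4% and 41.7% of the set were members, and ranged from 41.6% to 56.0% with 1 library left out, where 38.5% to 53.7% were members. Without brain replicate 1 it was 50.3% where 50.7% were members. The difference in order against brain-only regions ranged from 10.3 to 29.5 percentage points with 1 library left out. In those settings 6.47% to 66.3% of the set was fat-body-only. These left-out values were added after seeing the data. The share in the first and last 10% of sequences was 19.8% at equal list lengths and ranged from 18.6% to 22.5% with 1 library left out. That share was not computed for fat body regions with a brain peak in these settings, so the range does not show whether their difference held. By the other measure, the excess of the fat-body-only share within 500 kb of an end kept its direction in all 11 alternatives. Of these, the limit to long sequences could not change it. The excess was smallest without fat body replicate 2, at 2.83 percentage points. Of the 23 members named singly, 12 stayed fat-body-only in all 11. Leaving out a list and the limit to long sequences could not remove any of them. The losses came from the limits on −log10 q, equal list lengths and the gap of 1 kb to a brain peak. The causes of these moves were not tested beyond the numbers of peaks and lists each alternative leaves. No paired analysis was possible because no result comes from a test.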
